A study of Mus musculus with 6 samples.

Results

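Genes of the semaphorin, plexin, Eph receptor and ephrin families were examined in mouse cochlear explants after neomycin damage. Members were all rows of the count table whose symbol begins with Sema, Plxn, Eph or Efn followed by a class letter or number of these families, which gave 52 rows of 24421. They were 20 semaphorins of classes 3 to 7, 9 plexins, 14 Eph receptors, 8 ephrins and the antisense transcript Plxna4os1. Of these, 50 had enough counts to be tested. Epha6, with 0 to 4 counts per sample, and Plxna4os1, with 1 to 13, did not pass the filter on low counts.

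Cochleae of wild-type (WT) mice at postnatal day 2 were cultured for 12 h, and the neomycin group then received neomycin, an aminoglycoside antibiotic toxic to hair cells (HCs), at 1 mM for 6 h. Both groups were cultured for a further 5 days with 10 μM EdU, a thymidine analog that marks dividing cells, and the control group was taken as explants without neomycin although the sample labels carry the same neomycin text for all 6 samples. Each group held 3 samples, each a pool of 6 to 8 cochleae, so that a value is a mean over HCs, supporting cells (SCs) and every other cell left in the explant. The sources used here do not say whether the pools came from separate litters or cultures. The p-values set the difference between groups against the spread between these pools, with no separate estimate for animals, litters or cultures.

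Semaphorins are secreted (class 3), membrane-spanning (classes 4 to 6) or GPI-anchored (class 7) guidance cues, and plexins are their receptors, joined by neuropilins for most class 3 members. Ephrins are cell-surface ligands, GPI-anchored in subclass A and membrane-spanning in subclass B, that activate Eph receptor tyrosine kinases on neighboring cells and can also signal back into their own cell. In the developing cochlea these families are known for steering spiral ganglion axons toward HCs and for keeping cell territories apart.

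Total counts per sample lay between 50471116 and 66068108, and levels are counts scaled for library size by the TMM method. HC markers were lower after neomycin, with 17 of 18 past the adjusted p-value. Their summed level was 917 to 1031 CPM (counts per 1000000 counts of the library) in control and 285 to 349 CPM after neomycin. Of 17 SC markers 4 were lower, 2 higher and 11, Sox2 among them, did not pass. The SC sum was higher after neomycin without overlap (9409 to 10241 CPM in control, 11060 to 11809 CPM after neomycin). Of 17 neuronal markers 5 were lower and 2 higher (summed level 403 to 523 CPM in control, 370 to 396 CPM after neomycin). Of 12 endothelial markers 8 were lower, and their sum was 323 to 366 CPM in control and 308 to 362 CPM after neomycin because Emcn, which did not pass, held most of it. Of 12 macrophage markers 7 were higher (105 to 136 CPM in control, 151 to 187 CPM after neomycin), and of 9 pericyte and smooth muscle markers 4 were lower (227 to 269 CPM in control, 186 to 199 CPM after neomycin). Of 12 mesenchymal markers 4 were lower and 2 higher (6416 to 7028 CPM in control, 6696 to 6933 CPM after neomycin). Of 12 Schwann cell and glial markers 2 were lower and 1 higher (640 to 709 CPM in control, 661 to 682 CPM after neomycin). Over all tested genes 16.1% were lower and 12.9% higher by the adjusted p-value, the measure used for these marker counts. No marker of these lists was at 0 in every sample. The part of these cell types in the guidance gene differences was not tested, and in bulk RNA fewer cells of a type and less RNA per cell cannot be told apart.

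In control explants the most abundant members per unit length came from all 4 families. On the scale of CPM per kilobase of exon, the ephrin Efna1 was at 41.2 ± 2.20 (SD, n = 3, as for all values given with ±), the plexin Plxnb2 at 37.1 ± 3.45, the receptor Ephb4 at 28.2 ± 0.832 and the secreted semaphorin Sema3f at 26.0 ± 1.18. Efna1 and Plxnb2 overlapped in their control samples, and Ephb4 lay below both without overlap. Epha7 (19.9 ± 1.48) and the ephrin Efnb2 (19.5 ± 1.43) followed and overlapped each other. At the other end, Sema3g, Epha8, Epha10, Plxna4os1 and Epha6 had control means under 0.2 CPM per kilobase, with 5 to 34 counts per sample for Epha8 and Epha10.

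**Figure D1:**
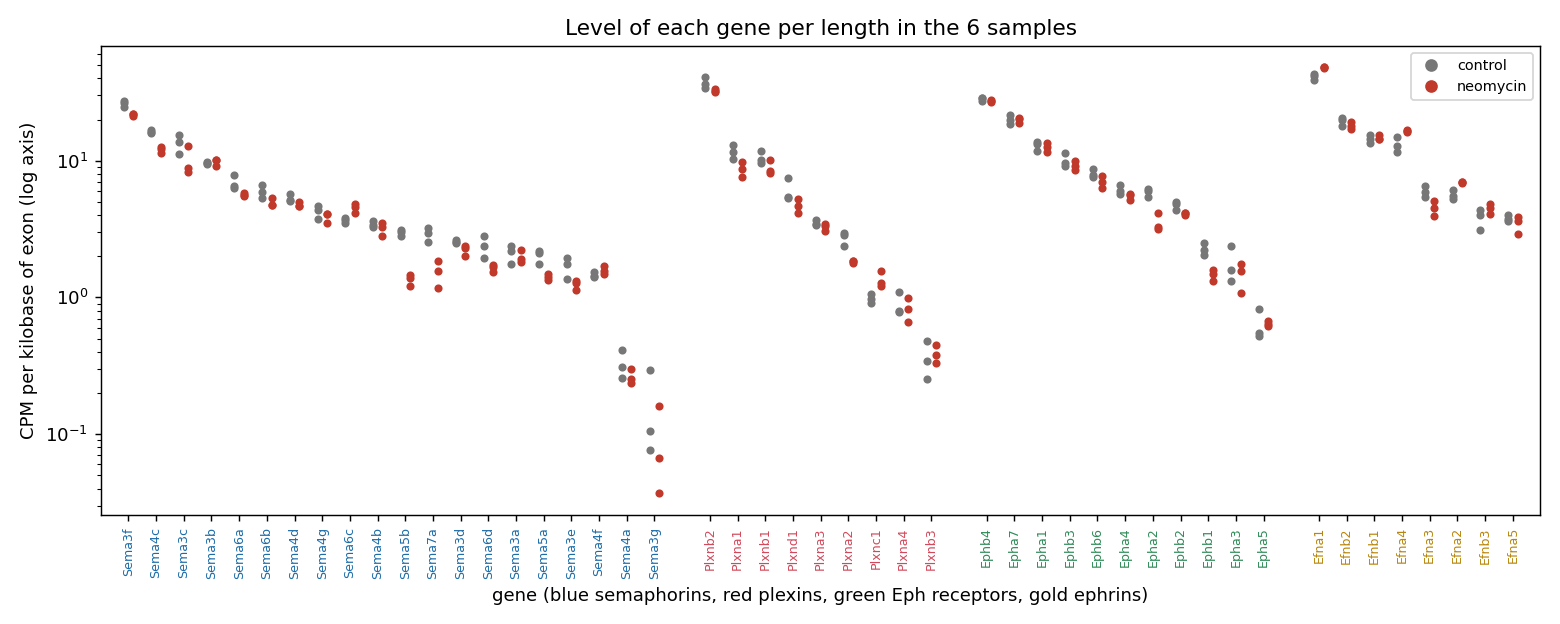
Level of each member in each of the 6 samples, in CPM per kilobase of exon on a log axis, for the members with a mean of at least 0.5 CPM; points are single samples, grey for control and red for neomycin, and families stand side by side in the order semaphorins, plexins, Eph receptors, ephrins. Efna1 and Plxnb2 are at the top, and the neomycin points of Sema5b, Sema7a and Epha2 sit clear below their control points.

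The comparison of neomycin with control asked how these genes stood 5 days after damage. Tested by the quasi-likelihood method of edgeR on 15988 genes, with p-values adjusted after Benjamini and Hochberg, 4 members were called lower (adjusted p under 0.05 and a fold change over 1.5), namely Sema5b, Sema7a, Epha2 and Ephb1, and 0 were called higher. Over all tested genes 6.60% were called lower and 2.24% higher, so the share of members called lower was close to the background. By the adjusted p-value alone 16 members were lower, where 16.1% of all genes were, and 5 were higher, where 12.9% of all genes were. Control and neomycin samples were fully apart for 19 members lower after neomycin and 5 higher, against 22.5% and 21.0% of all genes. The members' median log2 fold change was -0.17, with 38 negative and 12 positive, beside -0.0041 over all genes. The number past the adjusted p-value went from 21 to 10 without neomycin replicate 2 and to 12 without neomycin replicate 3 or control replicate 2. Epha2, Ephb1, Plxna2, Sema4c, Sema5a, Sema5b, Sema6d and Sema7a passed whichever sample was left out, and each of the others lost its call on leaving out at least 1 sample.

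**Figure D2:**
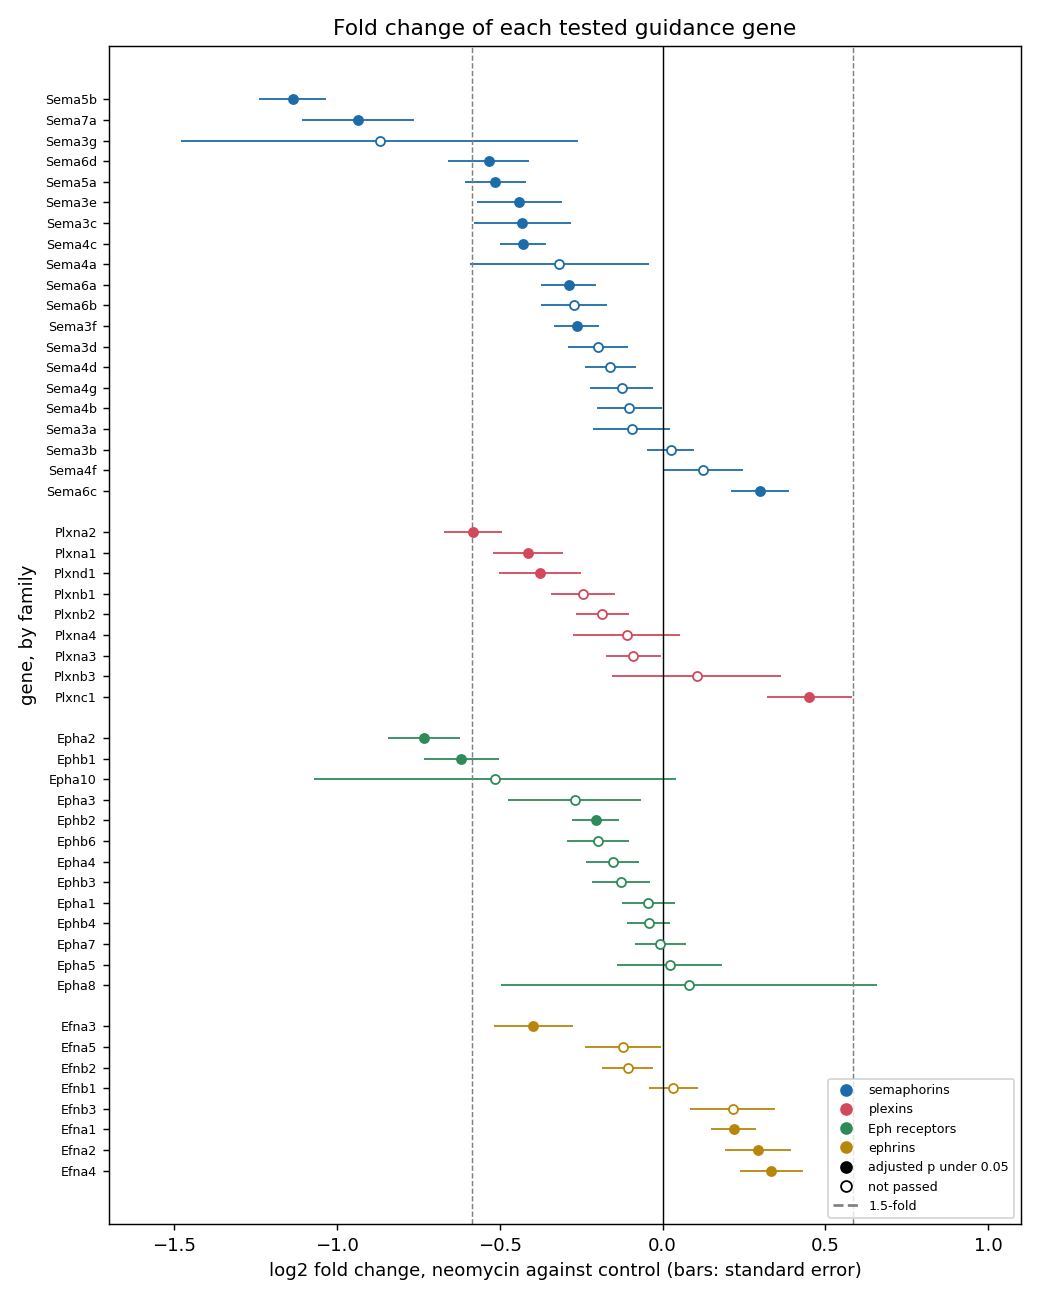
Log2 fold change of neomycin against control for the 50 tested members by family, with bars for the standard error; filled points have an adjusted p under 0.05 (edgeR), and dashed lines mark a fold of 1.5 in each direction. Sema5b, Sema7a, Epha2 and Ephb1 are the filled points beyond the left line, and 3 of the 8 ephrins are filled points to the right of 0.

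Sema5b, a membrane-spanning semaphorin with thrombospondin repeats that can repel growing neurites, had the largest fall of all members. Its level was 22.0, 20.0 and 21.1 CPM in the control samples and 10.3, 9.76 and 8.64 CPM after neomycin. Every neomycin sample was below every control sample by more than the spread within either group. This is a log2 fold change of -1.14 with a standard error (SE) of 0.10 (adjusted p = 1.61e-05, edgeR). The gene lies on chromosome 16 from 35541145 to 35664732 (mm10), and Gm5963 overlaps it on the opposite strand.

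Sema7a, the GPI-anchored member that binds plexin C1 and β1 integrins, was at 9.81, 10.7 and 8.38 CPM in control and 3.84, 5.12 and 6.11 CPM after neomycin. The groups were apart, and the neomycin samples spread over a wider range relative to their mean than the control samples. On the log2 scale it fell by 0.94 (SE 0.17, adjusted p = 0.0022, edgeR). Sema7a lies on chromosome 9 from 57940112 to 57962865 (mm10).

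Epha2, an EphA receptor known for its role in epithelial cells, was at 25.2, 28.8 and 27.9 CPM in control and 14.7, 15.3 and 19.2 CPM after neomycin. Neomycin replicate 3 was the highest of its group and still under all controls. On the log2 scale it changed by -0.73 (SE 0.11, adjusted p = 0.00069, edgeR). Epha2 lies on chromosome 4 from 141301240 to 141329384 (mm10).

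Ephb1, a receptor for ephrin-B ligands known from axon sorting at the optic chiasm, was at 17.4, 14.3 and 15.4 CPM in control and 11.2, 10.3 and 9.22 CPM after neomycin. All neomycin samples were below all controls, a change of -0.62 on the log2 scale (SE 0.12, adjusted p = 0.0024, edgeR). Its fold of 1.54 was close to the threshold and came to 1.45 without control replicate 1 and 1.46 without neomycin replicate 3, while the adjusted p-value stayed under 0.05 in both. Ephb1 lies on chromosome 9 from 101922128 to 102354693 (mm10), with several overlapping genes on both strands.

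Just outside the fold threshold was Plxna2, the plexin that binds Sema6a. Its level was 50.6, 49.2 and 40.8 CPM in control and 30.7, 31.6 and 31.6 CPM after neomycin, a fold that fell short of 1.5 only in the third decimal (log2 fold change -0.58, SE 0.09, adjusted p = 0.00070, edgeR). The 3 neomycin samples were nearly equal, and control replicate 3 was nearest to them.

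**Figure D3:**
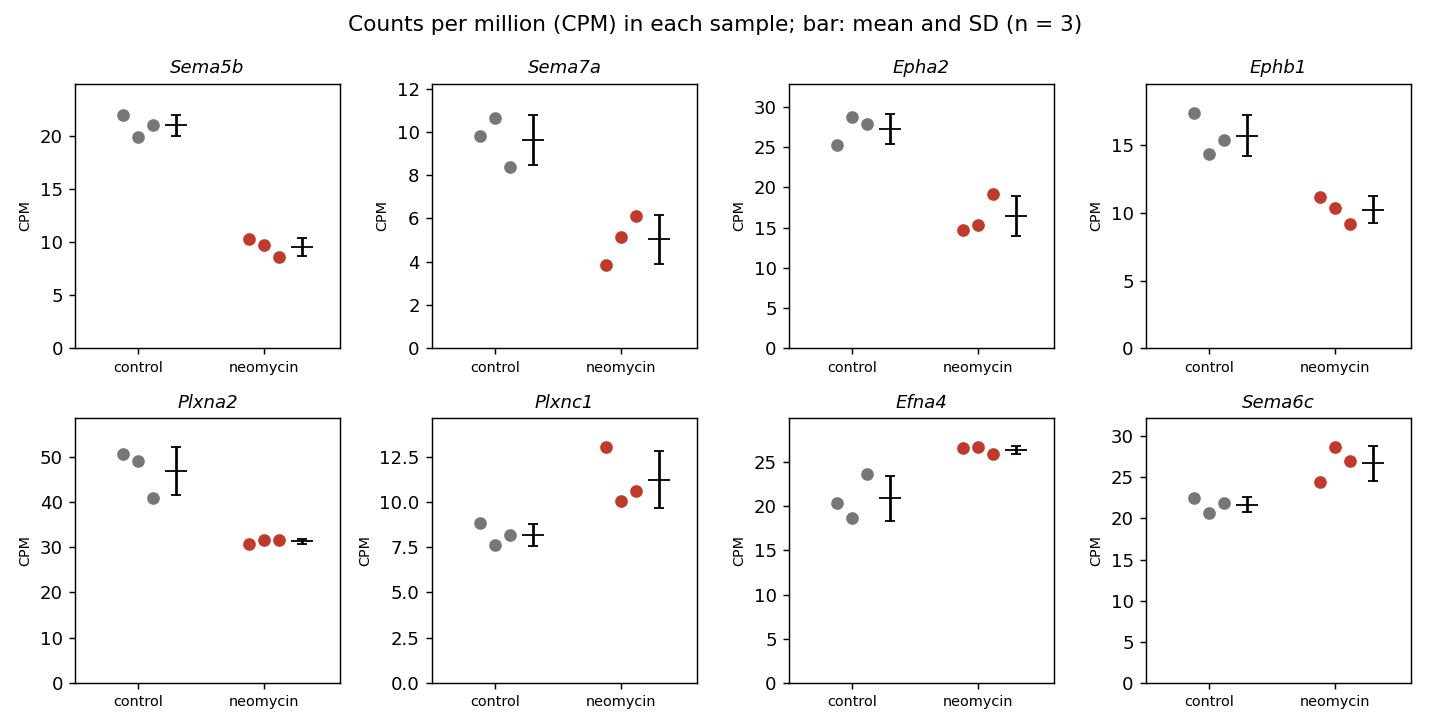
CPM in each sample for the 4 members called lower (Sema5b, Sema7a, Epha2, Ephb1), for Plxna2 next to the fold threshold, and for 3 members higher by the adjusted p-value alone (Plxnc1, Efna4, Sema6c); points are samples 1 to 3 from left to right in each group, with the mean and SD beside them, on axes that start at 0. Control and neomycin points do not overlap in any of the 8 panels.

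The sequence upstream of the called genes is shown because they are the members past both thresholds. Windows of 250 bases before the annotated start were taken from RefSeq (GRCm38.p6), where 45 of the 52 members had 59 windows among 32851 in all. Capitals mark matches on either strand to short motifs of factors discussed for HC regeneration or common in promoters, namely GGAATG for TEAD, TGGGAA for RBPJ, GGGCGG for the GC box and TGACGTCA for CRE, where TEAD and RBPJ matches can share bases. The windows are read 5′ to 3′ on the strand of the gene, at chr4:141300971-141301220 (plus strand) for Epha2, chr9:57939862-57940111 (plus strand) for Sema7a and chr9:102354694-102354943 (minus strand) for Ephb1.
Epha2: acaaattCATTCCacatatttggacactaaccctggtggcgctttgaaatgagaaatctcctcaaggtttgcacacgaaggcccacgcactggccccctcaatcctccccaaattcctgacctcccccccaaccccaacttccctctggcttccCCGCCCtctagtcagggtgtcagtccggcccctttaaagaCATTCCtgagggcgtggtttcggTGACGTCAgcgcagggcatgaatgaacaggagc
Sema7a: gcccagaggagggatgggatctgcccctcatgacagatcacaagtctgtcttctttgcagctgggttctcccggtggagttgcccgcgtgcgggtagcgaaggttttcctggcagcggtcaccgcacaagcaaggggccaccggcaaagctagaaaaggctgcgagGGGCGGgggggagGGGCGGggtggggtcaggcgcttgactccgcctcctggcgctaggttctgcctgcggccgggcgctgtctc
Ephb1: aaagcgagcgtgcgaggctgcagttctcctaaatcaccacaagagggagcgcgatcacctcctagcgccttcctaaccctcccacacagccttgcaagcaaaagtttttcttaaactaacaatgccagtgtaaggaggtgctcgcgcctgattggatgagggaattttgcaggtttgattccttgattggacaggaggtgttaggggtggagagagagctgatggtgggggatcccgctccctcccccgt
Epha2 held the TEAD letters, as CATTCC, beginning 243 and 56 bases before the start, a GC box as CCGCCC at 96 bases and the CRE letters at 33 bases. Sema7a held the GC box at 84 and 71 bases, and Ephb1 held none of the 4 motifs. The window of Sema5b reaches into its annotated first exon and is not printed, and it held none of the 4 either. Over all windows, noncoding genes included, 12.6% held the TEAD letters, 21.6% the RBPJ letters, 32.7% the GC box and 1.55% the CRE letters. Over the members' windows the shares were 11.9%, 18.6%, 74.6% and 1.69%, with a median GC content of 64.0% against 52.4% in all windows. A match says only that these letters are in the window.

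Among the ligands, 17 of 20 semaphorins had a negative log2 fold change (median -0.28). By the adjusted p-value 9 fell and 1 rose, where 16.1% and 12.9% of all genes did. With the trend of all genes with exon length removed 7 were lower and 1 higher (median -0.22), where 13.1% and 10.4% of all genes were. Their summed level was 694 to 770 CPM in control and 590 to 605 CPM after neomycin, without overlap.

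Both class 5 members fell. Sema5a, the partner of Sema5b in its class, was at 40.6, 39.4 and 33.0 CPM in control and 25.2, 26.5 and 27.5 CPM after neomycin (log2 fold change -0.51, SE 0.09, adjusted p = 0.0020, edgeR). The class 5 sum was 54.1 to 62.7 CPM in control and 35.5 to 36.3 CPM after neomycin, so the control samples differed more among themselves than the neomycin samples did.

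Of the 7 secreted class 3 semaphorins 3 fell and 0 rose by the adjusted p-value, where 16.1% and 12.9% of all genes did. With the length trend removed 1 was lower and 0 higher, where 13.1% and 10.4% of all genes were. Sema3f, a ligand of neuropilin-2 that repels spiral ganglion axons, was at 136, 129 and 141 CPM in control and 114, 114 and 110 CPM after neomycin (log2 fold change -0.26, adjusted p = 0.014, edgeR). Sema3e, which binds plexin D1 without a neuropilin, changed by -0.44 on the log2 scale (adjusted p = 0.025, edgeR). Sema3c, known from the cardiac outflow tract, was at 111, 97.2 and 80.1 CPM in control and 59.1, 63.3 and 91.3 CPM after neomycin, so that its groups overlapped (log2 fold change -0.43, adjusted p = 0.047, edgeR). Neomycin replicate 3 stood apart from the other samples of its group for this gene. Without it the log2 fold change was -0.65, and on leaving out each of the other samples it ran from -0.31 (without control replicate 1, adjusted p = 0.15) to -0.53. DESeq2 did not call the gene (adjusted p = 0.18). Sema3a, Sema3b, Sema3d and Sema3g did not pass. Sema3b, the most abundant of these 4 per length, was at 46.0 ± 1.09 CPM in control and 46.8 ± 2.66 CPM after neomycin, and the low Sema3g varied from 0.345 to 1.35 CPM among the controls alone.

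Class 4 holds membrane-spanning ligands of the plexin B receptors. By the adjusted p-value 1 of its 6 members fell and 0 rose, where 16.1% and 12.9% of all genes did. Sema4c, a ligand of plexin B2, was at 72.8, 77.0 and 74.2 CPM in control and 58.3, 55.8 and 52.2 CPM after neomycin, a tight and separate pair of groups (log2 fold change -0.43, SE 0.07, adjusted p = 0.0011, edgeR). D430040D24Rik overlaps this gene on the opposite strand. Sema4d, the ligand of plexin B1, was at 40.8 ± 2.82 and 36.5 ± 1.66 CPM and did not pass (adjusted p = 0.15, edgeR), nor did Sema4a, Sema4b, Sema4f and Sema4g, whose log2 fold changes ran from -0.32 to 0.12.

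Class 6 moved in both directions. Sema6d, a ligand of plexin A1, was at 29.6, 25.2 and 20.4 CPM in control and 18.2, 17.5 and 16.2 CPM after neomycin (log2 fold change -0.53, SE 0.12, adjusted p = 0.0076, edgeR). Sema6a, the ligand of plexins A2 and A4, also fell (log2 fold change -0.29, adjusted p = 0.025, edgeR), and came to -0.18 without control replicate 1 (adjusted p = 0.12). In contrast, Sema6c was at 22.5, 20.6 and 21.9 CPM in control and 24.4, 28.6 and 27.1 CPM after neomycin, the only semaphorin that rose by the adjusted p-value (log2 fold change 0.30, SE 0.09, adjusted p = 0.026, edgeR). Sema6b was at 23.6 ± 2.59 and 19.5 ± 1.32 CPM and did not pass (adjusted p = 0.061, edgeR).

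Among the plexin receptors 3 of 9 fell and 1 rose by the adjusted p-value, where 16.1% and 12.9% of all genes did (median log2 fold change -0.19). With the length trend removed 1 was lower and 1 higher, where 13.1% and 10.4% of all genes were (median -0.05). Besides Plxna2, Plxna1, a receptor for class 6 semaphorins and with neuropilins for class 3, was at 118, 104 and 92.4 CPM in control and 88.9, 68.3 and 79.3 CPM after neomycin (log2 fold change -0.41, adjusted p = 0.013, edgeR). Plxnd1, best known from blood vessels, was at 54.7, 39.8 and 38.6 CPM in control and 38.1, 34.2 and 30.4 CPM after neomycin (log2 fold change -0.38, adjusted p = 0.042, edgeR). The lowest control and the highest neomycin sample of Plxnd1 nearly met, and without control replicate 1 its log2 fold change was -0.19 (adjusted p = 0.19, edgeR).

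Plxnc1, the receptor of Sema7a, was the plexin that rose. It was at 8.82, 7.61 and 8.15 CPM in control and 13.0, 10.1 and 10.6 CPM after neomycin, all 3 above the controls (log2 fold change 0.45, SE 0.13, adjusted p = 0.022, edgeR). This gene is also expressed in myeloid cells. Of the 12 macrophage markers described above 7 were higher in the same samples, and 4 were with the length trend removed. Whether macrophages bear on the level of Plxnc1 was not tested. The remaining plexins did not pass. Plxnb2, the most abundant, was at 286 ± 26.7 CPM in control and 252.0 ± 7.53 CPM after neomycin (log2 fold change -0.19, adjusted p = 0.11, edgeR), with no overlap between groups. Plxna3 was at 27.6 ± 1.32 and 25.9 ± 1.56 CPM, and the log2 fold changes of Plxna4, Plxnb1 and Plxnb3 were -0.11, -0.24 and 0.10.

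Ephrins had a median log2 fold change of 0.12 over 8 members, which came to 0.0086 with the length trend removed. By the adjusted p-value 3 were higher and 1 lower, where 12.9% and 16.1% of all genes were. With the length trend removed 0 were higher and 1 lower, where 10.4% and 13.1% of all genes were. In subclass A, GPI-anchored ligands of EphA receptors, Efna1, Efna2 and Efna4 rose and Efna3 fell by the adjusted p-value, and Efna5 did not pass. Efna4 was at 20.4, 18.6 and 23.7 CPM in control and 26.5, 26.7 and 25.9 CPM after neomycin (log2 fold change 0.33, SE 0.10, adjusted p = 0.024, edgeR). Efna2 was at 13.1, 11.3 and 11.8 CPM in control and 14.6, 14.8 and 14.8 CPM after neomycin (log2 fold change 0.29, adjusted p = 0.046, edgeR). Efna1, a ligand with high affinity for Epha2, was at 70.8, 78.5 and 76.7 CPM in control and 86.9, 88.3 and 87.9 CPM after neomycin (log2 fold change 0.22, adjusted p = 0.031, edgeR). For all 3 genes the neomycin samples were close together and above every control.

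Efna3 was at 13.1, 14.4 and 15.9 CPM in control and 9.62, 12.4 and 10.9 CPM after neomycin, separate groups in the opposite direction (log2 fold change -0.40, SE 0.12, adjusted p = 0.029, edgeR). Efna1, Efna3 and Efna4 lie in a cluster on chromosome 3, within 89271733 to 89338028 (mm10), and of these Efna3 alone passed with the length trend removed. Genes on the opposite strand overlap Efna3 (Gm15998) and Efna4 (4731419I09Rik). The 3 membrane-spanning ephrin-B ligands did not pass. Efnb2, which acts with Epha4 in the fasciculation of spiral ganglion axons, was at 133 ± 9.80 CPM in control and 124 ± 7.32 CPM after neomycin, and Efnb1 and Efnb3 had log2 fold changes of 0.03 and 0.22.

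Of 13 Eph receptors tested 3 fell and 0 rose by the adjusted p-value, where 16.1% and 12.9% of all genes did (median log2 fold change -0.15). With the length trend removed 2 were lower and 0 higher, where 13.1% and 10.4% of all genes were (median -0.02). The third besides Epha2 and Ephb1 was Ephb2, a receptor of ephrin-B ligands known from inner ear efferent guidance, at 62.6, 55.3 and 60.8 CPM in control and 52.2, 52.1 and 50.8 CPM after neomycin (log2 fold change -0.21, adjusted p = 0.048, edgeR). This adjusted p-value was the nearest to the threshold among those that passed. The most abundant receptors did not pass. Ephb4, the receptor of Efnb2 in veins, was at 131 ± 3.86 and 127 ± 2.13 CPM and a log2 ratio of -0.04 (SE 0.07), and Epha7 was at 197 ± 14.6 and 196 ± 8.98 CPM with -0.01 (SE 0.08). Epha1, Epha3, Epha4, Epha5, Ephb3 and Ephb6 had log2 fold changes from -0.27 to 0.02. Epha8 and Epha10, at under 0.5 CPM in every sample, could not be measured with precision (standard errors 0.58 and 0.56).

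**Figure D4:**
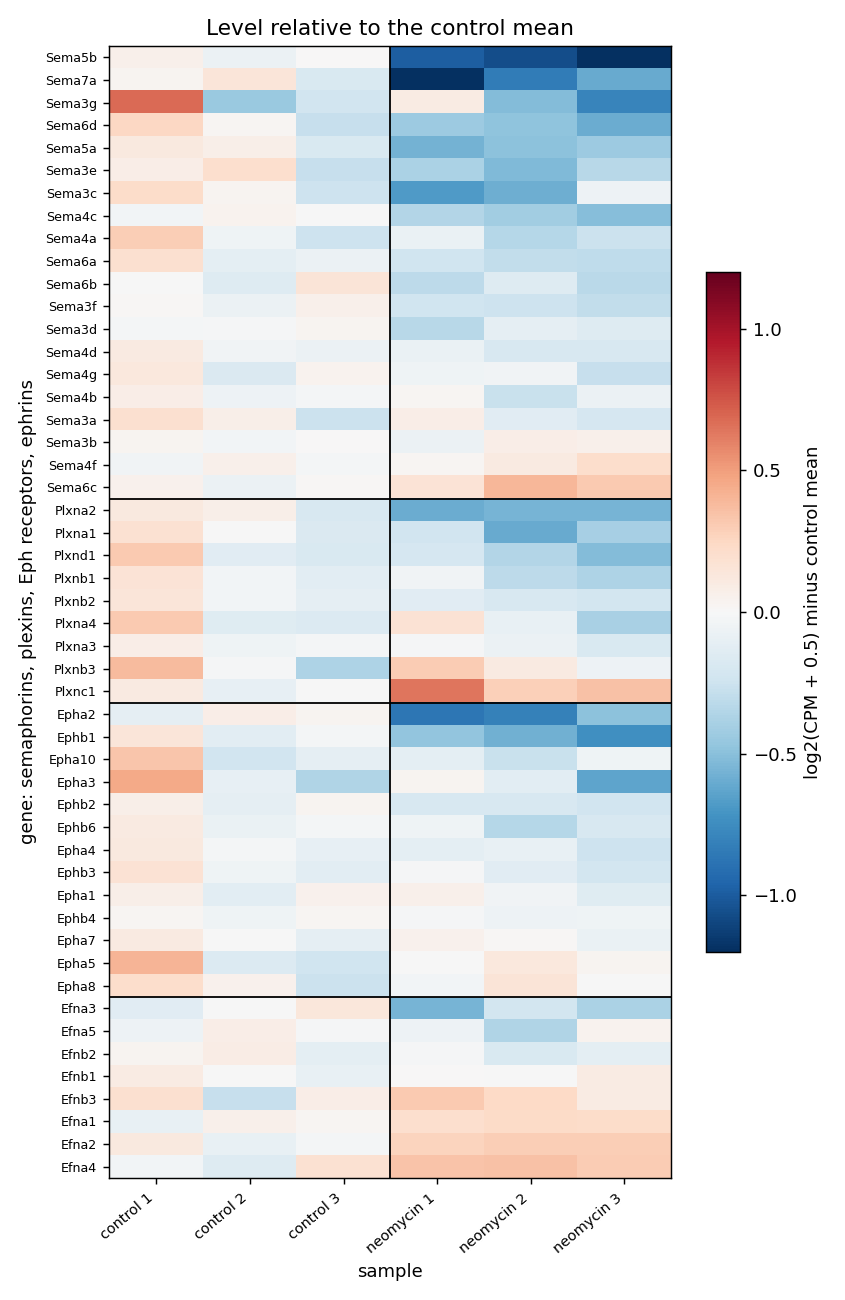
Level of each tested member in each sample as log2(CPM + 0.5) minus the mean of the 3 control samples, red for higher and blue for lower, with families separated by lines. Control replicate 1 is above the other controls in many rows, and the neomycin columns are blue in all 3 samples for Sema5b, Sema7a, Plxna2, Epha2 and Ephb1 and red for Plxnc1, Efna1, Efna2 and Efna4.

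Pairs of ligand and receptor known to bind each other were set side by side, chosen with the values in view. Sema7a fell while its receptor Plxnc1 rose, with log2 fold changes of -0.94 and 0.45. Epha2 fell while its ligand Efna1 rose, at -0.73 and 0.22, but Efna1 came to 0.02 with the length trend removed (adjusted p = 0.89, edgeR) and Epha2 to -0.71. Without that correction Sema3e and Plxnd1 both fell, at -0.44 and -0.38, and so did Sema6a with Plxna2 (-0.29 and -0.58) and Sema6d with Plxna1 (-0.53 and -0.41). For Sema4c (-0.43) the receptor Plxnb2 did not pass (-0.19), and neither gene of the pair Sema4d and Plxnb1 did (-0.16 and -0.24).

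Level differences followed exon length across the whole table, and the members are long genes. The median log2 fold change went from 0.24 in the shortest of 5 length classes of equal size (median exon length 1600.5 bases) to -0.19 in the longest (median 9641 bases), and members had a median exon length of 6928.5 bases against 4252 over all genes. With this trend removed from each sample, the members' median was -0.050, and 11 were lower and 2 higher by the adjusted p-value, where 13.1% and 10.4% of all genes were. Efna1, Efna2, Efna4, Ephb2, Plxna1, Plxnd1, Sema3c, Sema3e and Sema6a no longer passed, with Ephb2 at a log2 fold change of 0.01, and Sema6b then did. The rise of the 3 short ephrin-A genes came to log2 fold changes of 0.02, 0.12 and 0.10 for Efna1, Efna2 and Efna4, while Efna3 stayed lower at -0.53.

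Sema5b, Sema7a and Epha2 were called with the length trend removed as well (log2 fold change -1.02 for Sema5b and -0.71 for Epha2, and a larger fall than before for Sema7a, adjusted p = 0.0011, edgeR). Ephb1 and Plxna2 kept an adjusted p under 0.05 with smaller folds of 1.42 and 1.24. Plxnc1, a long gene that was higher, came to 0.59 and a fold of 1.51, past the threshold, and Sema6c to 0.38. The cause of the trend was not tested.

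**Figure D5:**
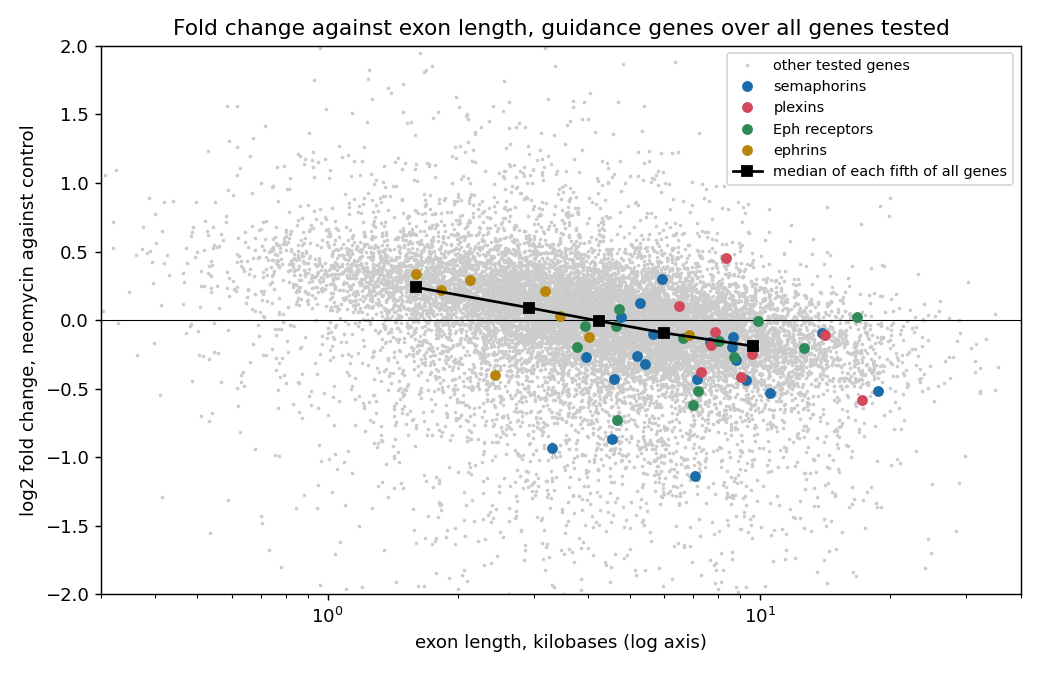
Log2 fold change of neomycin against control over exon length in kilobases (log axis), with members coloured by family, other tested genes as small grey points (those beyond 2 in either direction are not drawn) and black squares for the median of each of the 5 length classes. The squares go from 0.24 to -0.19, most plexins and semaphorins stand at the long end, and Sema5b, Sema7a and Epha2 lie far below the line.

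Genes that work with these families, and those of other guidance systems given further below, were counted from 4 lists. Of these genes 0 were called higher, where 2.24% of all genes were. Of 11 tested co-receptors and other partners 3 were called lower, where 6.60% of all genes were. Nrp2, the neuropilin that pairs with Sema3f, was at 41.7, 41.3 and 35.8 CPM in control and 29.5, 28.0 and 21.6 CPM after neomycin (log2 fold change -0.59, SE 0.11, adjusted p = 0.0029, edgeR), all below the controls. Its fold was at the threshold, and with the length trend removed the log2 fold change was -0.37 (adjusted p = 0.011, edgeR), no longer past it. Nrp1, the neuropilin of Sema3a, stayed between 38.4 and 41.4 CPM in all 6 samples (log2 fold change -0.04, adjusted p = 0.74, edgeR). The adhesion molecule Cntn2 (-2.15) and the collagen-binding integrin subunit Itga1 (-1.03) were the other two called lower.

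Of 38 semaphorin and plexin signaling genes 12 fell and 4 rose by the adjusted p-value (median log2 fold change -0.07), where 16.1% and 12.9% of all genes did. With the length trend removed 8 were lower and 5 higher, where 13.1% and 10.4% of all genes were. Over all genes 6.60% were called lower, and in this list 4 were. The 4 called lower were Farp2 (-0.94), an exchange factor bound to plexin A1, Crmp1 (-0.90), a collapsin response mediator, Mical2 (-0.78), an actin-oxidizing enzyme, and Arhgef11 (-0.68), an exchange factor bound to plexin B. Of 37 tested Eph and ephrin signaling genes 10 fell and 0 rose by the adjusted p-value (median -0.10), against the same 16.1% and 12.9% of all genes. With the length trend removed 5 were lower and 2 higher (median -0.0066), against 13.1% and 10.4% of all genes. The 4 called lower, against 6.60% of all genes, were Kalrn (-1.81), Sipa1l1 (-0.62), Vav2 (-0.60) and Tiam1 (-0.59). The protease Adam10, which cuts ephrins from the cell surface, changed by 0.08 on the log2 scale (adjusted p = 0.42, edgeR), and Ngef, the ephexin at EphA receptors, had -0.32 at a level near 1 CPM (adjusted p = 0.65, edgeR).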

How the data were processed

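RNA came from 6 pools of cochlear explants, 3 control and 3 neomycin. Per the submitters' processing notes, the authors used CASAVA 1.8, Trimmomatic 0.23, HISAT2, HTSeq and DESeq2 with mm10. They deposited counts, whole reads per gene symbol without normalization. The strand setting of the counting is not given in the sources used here, and 21 of the 52 members are overlapped by a gene on the opposite strand. Members and gene lists were chosen with earlier results of these data known.

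Counts were scaled by TMM, filtered with filterByExpr and tested with edgeR 4.0.16 (quasi-likelihood, R 4.3.3), with Benjamini-Hochberg adjustment over 15988 genes. Standard errors were obtained from the fold change on the log2 scale and the F statistic (its size over the root of F). The thresholds, an adjusted p of 0.05 and a fold of 1.5, are those of the study's methods, which used DESeq2. Members past the adjusted p-value, the most abundant member of each family that did not pass, pathway genes called (at most 4 per list), Nrp1, Nrp2, Adam10 and Ngef were named. Exon lengths and coordinates are from GENCODE (mm10) and the length correction is a lowess (span 0.3) of each sample's log2 ratio on exon length, for 99.2% of the genes. Alternatives used DESeq2 1.42.0, limma 3.58.1, other scalings and filters, the replicate block and each sample left out. Replicates differed beyond sampling noise (mean chi-square per gene 13.7 to 46.7 within groups). Precision is limited by 3 samples per group at 50471116 to 66068108 counts. The code was tested on simulated data.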

Additional observations from a re-analysis of the deposited data

How the results depend on the processing

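Of the 21 members past the adjusted p-value, 8 passed under all 15 alternatives (Epha2, Ephb1, Plxna2, Sema4c, Sema5a, Sema5b, Sema6d and Sema7a), and Sema5b, Sema7a and Epha2 were also called in all of them. Correction for exon length gave 13 members past the adjusted p-value, 1 called higher (Plxnc1) and a median log2 fold change of -0.050, and with the replicate block added 1 called higher and -0.051. Leaving out 1 sample at a time gave 10 to 20 members past the adjusted p-value (10 without neomycin replicate 2, and 12 when either neomycin replicate 3 or control replicate 2 was left out). Over all genes 2518 to 5341 passed in these fits, against 4629. The same fits gave 3 to 7 members called lower (7 without control replicate 3, with Plxna2, Sema5a and Sema6d added) and 8 to 21 pathway genes called (8 without control replicate 1, against 15). The sign turned for 5 named members. Epha7 came to 0.17 with the length correction (adjusted p = 0.054, and 0.029 with the block added, edgeR), to 0.014 with upper-quartile scaling and to -0.047 to 0.055 on leaving out samples. With the length correction, without and with the block, Efnb2 came to 0.0020 and 0.0021, Ephb2 to 0.012 and 0.016 and Plxna3 to 0.045 and 0.045. Sema3b ran from -0.0022 to 0.072 on leaving out samples. Sample numbers are shared by the groups. Deviations of same-numbered samples correlated at 0.165, 0.0264 and 0.0949, and those of differently numbered samples at -0.129 to 0.0325. These values do not settle whether the numbers pair the samples, and the main test used no block. With the replicate number as a block 24 members passed the adjusted p-value, with Ephb6, Plxnb1 and Plxnb2 added, and 6014 genes in all against 4629. DESeq2, limma-voom, other scalings and other filters gave 18 to 21 members past the adjusted p-value. Counting only members with a mean of at least 1 CPM, chosen after seeing the data, left 21 and a median of -0.16. With 3 samples a group, members at a few counts had standard errors too large to show a change of the size seen elsewhere.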

Other observations

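Guidance systems beside these families were counted from a list of 31 netrin, slit and RGM genes with their receptors. Of 29 tested, 8 fell and 0 rose by the adjusted p-value (edgeR, Benjamini-Hochberg), where 16.1% and 12.9% of all genes did. Their median log2 fold change was -0.19, the same in sign as the members' -0.17. Over all genes 6.60% were called lower, and in this list 4 were. These were Dscaml1 (-1.99), an adhesion molecule of neurites, Robo4 (-1.31), a receptor of endothelial cells whose groups overlapped, Ntng2 (-0.85), a GPI-anchored netrin, and Flrt1 (-0.81), an adhesion molecule that binds Unc5 receptors. With the length trend removed, 6 of the 29 were lower and 5 higher, where 13.1% and 10.4% of all genes were (median -0.091).

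Control replicate 1 stood above the other controls for the members as a set. Their summed level was 2513 CPM in that sample, 2300 and 2224 CPM in control replicates 2 and 3, and 2141, 2050 and 2043 CPM in the neomycin samples. The marker sums of neurons (523 CPM), Schwann cells and glia (709 CPM), pericytes and smooth muscle (269 CPM) and mesenchyme (7028 CPM) were also highest in this sample. Those of HCs, SCs, endothelium and macrophages were highest in other samples. Without control replicate 1 the members' median log2 fold change was -0.08.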
